A study of Mus musculus with 96 samples.

Results

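Nr3c1, Hsd11b1, Fkbp5, Tsc22d3, Zbtb16, Klf9, Sgk1, Mt1 and Mt2 are genes that sense, activate or answer glucocorticoid hormone. They were chosen by name, as the glucocorticoid receptor gene, a hormone-activating enzyme gene and 7 genes known to be induced by the receptor, and they are 9 of the 22384 genes in all 4 deposited tables. Of the 9, 8 had a mean of at least 1 RPKM (reads per transcript kilobase, relative to library size) over the 96 libraries and were tested among 12144 genes, and Hsd11b1 was under that level.

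Poly(A) RNA was sequenced from back-skin epidermis of male C57BL/6 mice aged 8 weeks that had free access to chow and 12 h of light followed by 12 h of dark, after warm dispase had freed the epidermis and its cells had been filtered. The design asks how daily rhythms of the epidermis depend on a clock in the skin, in the brain, in both or in all tissues, and it has 4 mice for each of 4 genotypes at 6 zeitgeber times (ZT) 4 h apart, with ZT0 at lights on. RERE mice, reconstituted in both tissues, had Arntl stopFL/stopFL with K14Cre tg/wt and with Syt10-Cre tg/wt. EpiRE mice, reconstituted in the epidermis, had Arntl stopFL/stopFL with K14Cre tg/wt but Syt10-Cre wt/wt. BRE mice, reconstituted in the brain, had Arntl stopFL/stopFL with Syt10-Cre tg/wt but K14Cre wt/wt. WT mice had Arntl wt/wt and also carried both drivers, K14Cre wt/tg and Syt10-Cre tg/wt, so every genotype held at least 1 Cre transgene. Arntl encodes the clock activator BMAL1, the stop cassette blocks it until Cre removes the cassette, K14Cre is driven by a keratin promoter of stratified epithelia, and Syt10-Cre is active in the brain, including the suprachiasmatic nucleus. Cells in which neither driver is active keep the cassette.

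Glucocorticoids (corticosterone in mice) leave the adrenal gland in a daily wave that crests near the start of activity, which for mice is lights off, and also in bursts under stress. The hormone enters cells and binds the receptor, which leaves its chaperones, moves to the nucleus and switches on genes such as Fkbp5, Tsc22d3 and Zbtb16 within hours. In skin, glucocorticoids restrain inflammation and keratinocyte growth, and keratinocytes can also make the active hormone locally.

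The libraries had an estimated 11.6 to 33.3 M counted reads with a median of 17.0 M. Keratinocyte markers dominated as the tissue label says, with 14600 to 24554 RPKM summed over the 7 markers listed in the tables (Krt5, Krt14, Krt1, Krt10, Lor, Ivl and Trp63). Summed levels were 21.6 to 91.9 RPKM for 5 T cell markers, 66.2 to 163 RPKM for 6 Langerhans cell markers and 7.34 to 89.1 RPKM for 7 fibroblast markers. Skeletal muscle markers (5) summed to 31.8 to 53.9 RPKM, blood markers (3) to 7.58 to 192 RPKM and melanocyte markers (5) to 5.99 to 29.0 RPKM. None of 5 adipocyte and 5 endothelial markers reached a mean of 1 RPKM. Arntl itself ran from 4.77 to 26.5 RPKM in RERE, 9.56 to 24 RPKM in EpiRE, 11.4 to 14.6 RPKM in BRE and 4.69 to 27.4 RPKM in WT, and reads per gene do not show whether its transcript is functional. In RNA from whole epidermis, fewer cells of a type and less RNA per cell cannot be told apart.

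Nr3c1 (ENSMUSG00000024431), the gene of the glucocorticoid receptor, stayed within a narrow range in every genotype. Its levels ran from 21.1 to 30.5 RPKM in RERE with a median of 26.8, from 22.8 to 31.0 RPKM in EpiRE with a median of 27.1, from 19 to 26.4 RPKM in BRE with a median of 23.6, and from 23.5 to 31.5 RPKM in WT with a median of 28.0. Mice of the same genotype and time differed little, with an SD between 0.07 (BRE) and 0.12 (EpiRE) on the log2 scale. The lowest mean of a genotype and time was that of BRE at ZT12, where the mice had 19, 22.3, 21.4 and 21.0 RPKM, against 21.9 to 26.4 RPKM in the 20 BRE mice of the other times, which overlap them only between 21.9 and 22.3 RPKM. A 24 h harmonic was fitted to the log2 values of each genotype with limma, with Benjamini-Hochberg adjustment over the 12144 genes. In BRE the Nr3c1 harmonic had a fitted peak-to-trough difference of 0.21 ± 0.05 log2 (SE, n = 24 mice) with a peak at ZT1.06 (adjusted p = 0.0124). The adjusted p-values in the other genotypes were 0.967 in RERE (0.03 ± 0.07 log2), 0.556 in EpiRE (0.11 ± 0.06 log2) and 0.107 in WT (0.15 ± 0.06 log2). The BRE rhythm rests on the scaling of the libraries, since its adjusted p was 0.109 after median-of-ratios rescaling, under which the WT rhythm had adjusted p = 0.0248. The rhythm difference of BRE against WT was not past the threshold (0.06 ± 0.07 log2, limma adjusted p = 0.149). Here and below, the harmonic p of a rhythm difference tests size and peak time together, while the log2 value beside it is the difference in size alone.

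Hsd11b1 (ENSMUSG00000016194, mm10 chromosome 1, 193221634 to 193264075, minus strand) encodes the enzyme that turns inactive 11-keto steroids back into active glucocorticoid inside cells. It was close to the floor of the measurement. Each library held 0 to 16 of its reads, with a median of 4.0, and 8 of the 96 libraries had 0. Its level, which contains the small prior count in the deposited values, averaged 0.18 ± 0.09 RPKM in RERE, 0.24 ± 0.11 RPKM in EpiRE, 0.20 ± 0.10 RPKM in BRE and 0.24 ± 0.14 RPKM in WT (SD, n = 24 each). With the low genes kept in the fit, its limma harmonic had an adjusted p of 0.907 in RERE, 1.0 in EpiRE, 0.266 in BRE and 0.449 in WT, and at this depth no rhythm was detectable. Of 10 other genes of steroid receptors and hormone handling, 2 were tested (Star and Cyp17a1), and neither was called rhythmic in any genotype by either fit (1 unadjusted limma p below 0.05, of Cyp17a1 in BRE). The mineralocorticoid receptor gene Nr3c2 averaged 0.548 RPKM in WT and Hsd11b2, whose product inactivates the hormone, 0.346 RPKM, both under the level for testing.

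Fkbp5 (ENSMUSG00000024222, chromosome 17, 28399094 to 28517527, minus strand) encodes a co-chaperone of the receptor that lowers its affinity for hormone, and the receptor induces it strongly. In WT its ZT12 values stood apart from every other time. In RERE the ZT8 mean of 25.1 RPKM was above the ZT12 mean of 21.2 RPKM, and in EpiRE single mice were high at other times of day. In BRE the ZT12 values were high for that genotype but lower than in WT.

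The RERE mice had 2.77, 3.01, 2.53 and 3.11 RPKM of Fkbp5 at ZT0, 3.21, 2.09, 2.94 and 3.08 at ZT4, 19.1, 35.4, 4.02 and 41.7 at ZT8, 31.5, 12.9, 27.2 and 13.2 at ZT12, 11.5, 4.85, 5.97 and 5.36 at ZT16, and 3.72, 5.34, 42.8 and 10.8 at ZT20. All 8 mice of ZT0 and ZT4 were low. ZT8 had the highest mean of the 6 times (25.1 ± 17.0 RPKM, SD, n = 4), with mice at 19.1, 35.4 and 41.7 RPKM and a mouse at 4.02 RPKM. The third mouse of ZT20 was the highest of all 24, so ZT12 overlaps ZT8 and ZT20.

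The EpiRE mice had 5.0, 4.77, 19.5 and 18.7 RPKM of Fkbp5 at ZT0, 30.3, 2.96, 2.96 and 3.29 at ZT4, 16.3, 8.39, 9.73 and 18.2 at ZT8, 4.41, 2.18, 4.19 and 48.5 at ZT12, 5.57, 10.6, 6.10 and 6.64 at ZT16, and 5.03, 3.66, 3.28 and 6.44 at ZT20. The highest and the lowest EpiRE mouse were both sampled at ZT12, and mice with over 15 RPKM came from ZT0, ZT4, ZT8 and ZT12.

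The BRE mice had 1.87, 3.67, 2.36 and 2.45 RPKM of Fkbp5 at ZT0, 2.29, 1.66, 1.98 and 2.39 at ZT4, 2.61, 2.97, 3.61 and 2.19 at ZT8, 10.8, 10.1, 12.9 and 7.75 at ZT12, 3.56, 24.4, 3.52 and 3.41 at ZT16, and 2.19, 6.80, 7.72 and 3.09 at ZT20. Only the second mouse of ZT16 exceeded the ZT12 mice, and the other 19 mice of the remaining times were below all 4 of them.

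The WT mice had 4.71, 4.30, 3.89 and 7.86 RPKM of Fkbp5 at ZT0, 5.10, 8.09, 4.69 and 5.01 at ZT4, 8.95, 10.8, 7.34 and 9.31 at ZT8, 33.5, 29.0, 36.2 and 32.3 at ZT12, 7.57, 6.10, 4.68 and 16.6 at ZT16, and 9.99, 3.83, 3.13 and 8.29 at ZT20. The 4 ZT12 mice did not overlap the 20 others, whose highest was 16.6 RPKM.

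**Figure D1:**
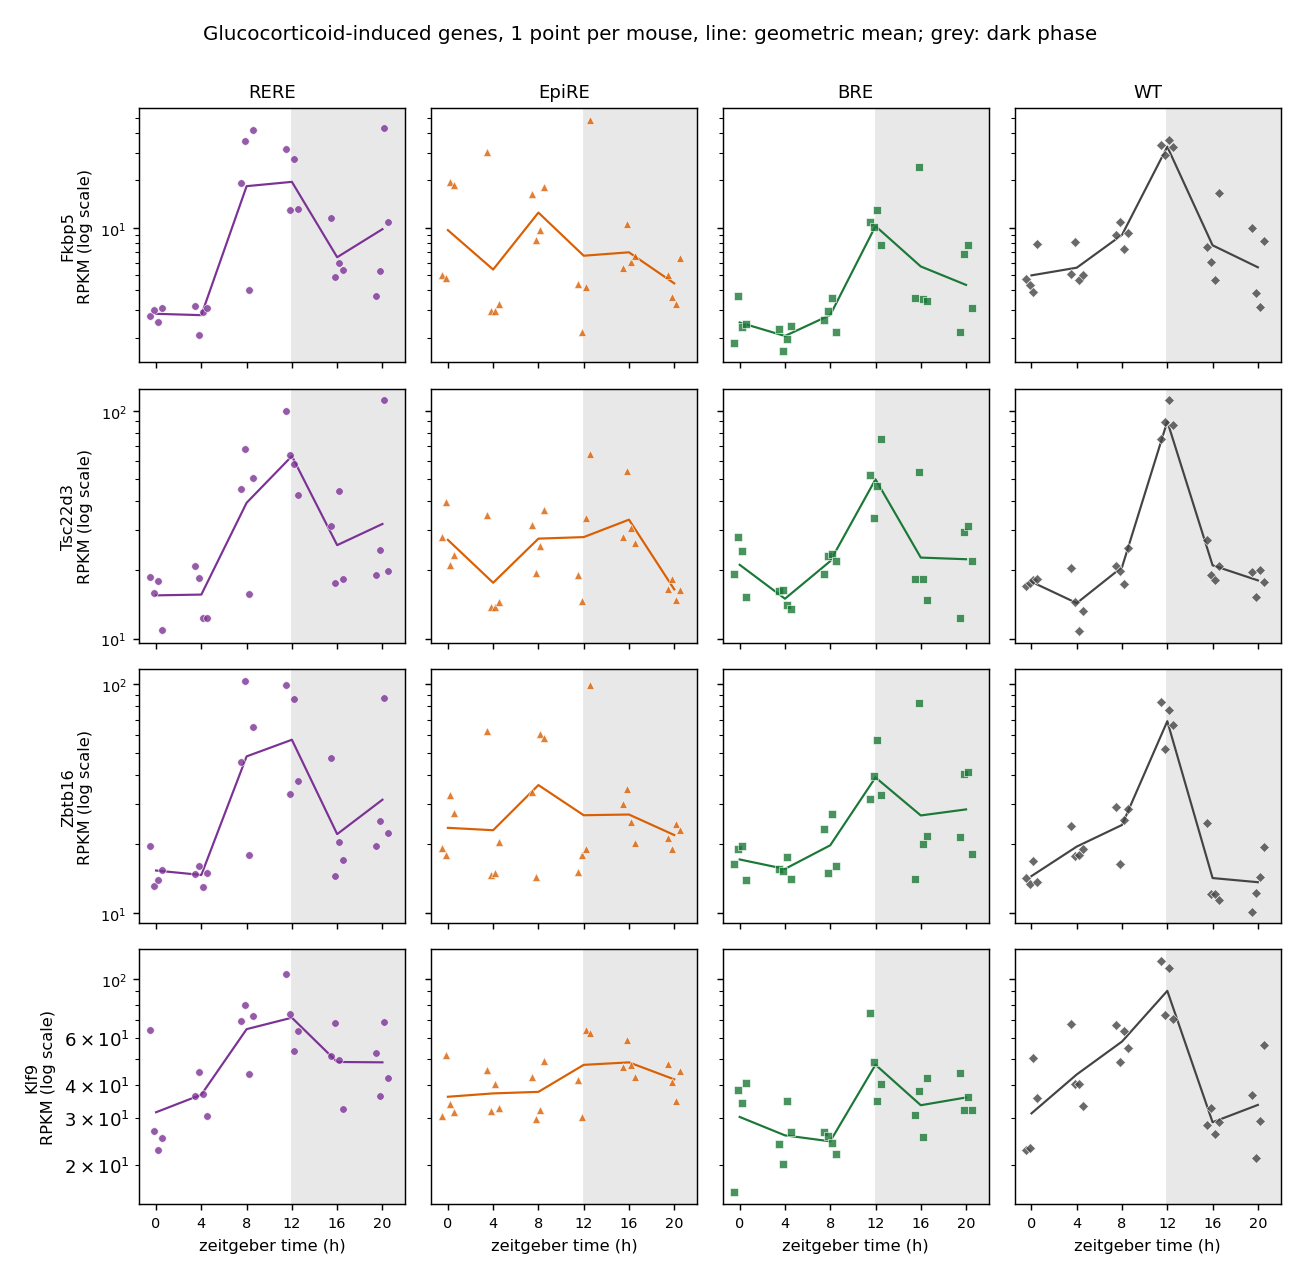
Level in RPKM (log axis) of Fkbp5, Tsc22d3, Zbtb16 and Klf9 against zeitgeber time in hours, with 1 point per mouse, the geometric mean as a line and the dark phase in grey. In WT the 4 mice of ZT12 lie above all 20 others in each of the 4 genes. EpiRE mice with over 15 RPKM of Fkbp5 lie at ZT0, ZT4, ZT8 and ZT12.

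At ZT12 Fkbp5 averaged 21.2 ± 9.55 RPKM in RERE, 14.8 ± 22.5 RPKM in EpiRE, 10.4 ± 2.14 RPKM in BRE and 32.8 ± 2.95 RPKM in WT (SD, n = 4 each). The ratio of the ZT12 mean to the mean of the other times was 1.99 in RERE, 1.58 in EpiRE, 2.46 in BRE and 4.67 in WT. The share of the log2 variance that lay between times was 64.6% in RERE, 18.7% in EpiRE, 61.4% in BRE and 80.1% in WT. Mice of the same genotype and time differed by an SD of 0.97 log2 in RERE, 1.19 in EpiRE, 0.72 in BRE and 0.53 in WT. Counting mice with at least 15 RPKM of Fkbp5, a level picked after the values were seen, gave 6 RERE mice of which 2 were sampled at ZT12, 6 EpiRE mice of which 1 was, 1 BRE mouse of which 0 were, and 5 WT mice of which 4 were.

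The harmonic of Fkbp5 had a peak-to-trough difference of 2.57 ± 0.65 log2 in RERE with a peak at ZT12.3 (SE, n = 24, limma adjusted p = 0.0248). It was 0.70 ± 0.67 log2 in EpiRE (adjusted p = 0.793), 2.03 ± 0.43 log2 in BRE with a peak at ZT14.4 (adjusted p = 0.0101) and 2.2 ± 0.41 log2 in WT, peaking at ZT11.8 (adjusted p = 0.00118). Treating the 6 times as a factor gave Fkbp5 adjusted p-values of 0.0148 in RERE, 0.705 in EpiRE, 0.0236 in BRE and 0.00016 in WT. In RERE the adjusted p was 0.0543 without the first mouse of ZT12 and 0.226, 0.101 and 0.0799 without all mice numbered 1, 2 or 4. In BRE the Fkbp5 rhythm kept its call without the high ZT16 mouse and without every other single library, but had adjusted p = 0.0932 and 0.0605 without all mice numbered 2 or 3. The authors' deposited table of JTK_CYCLE results gives Fkbp5 q values of 0.0225 in RERE, 1.0 in EpiRE, 0.032 in BRE and 0.0108 in WT, and their deposited BIOCYCLE table gives 0.468, 1.0, 0.182 and 0.0894, with no q below 0.05 for any of the 9 genes.

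No rhythm difference of Fkbp5 between genotypes passed the threshold. The peak-to-trough difference was larger by 0.37 ± 0.78 log2 in RERE against WT (limma adjusted p = 0.963). The EpiRE rhythm fell short of WT, with a difference of -1.49 ± 0.80 log2 (adjusted p = 0.201), and of RERE, with -1.87 ± 0.95 log2 (adjusted p = 0.248). BRE against WT gave -0.16 ± 0.60 log2 (adjusted p = 0.167) and BRE against EpiRE 1.33 ± 0.81 log2 (adjusted p = 0.101). A p that misses the threshold with standard errors of 0.60 to 0.95 log2 does not show that the rhythms were alike.

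RefSeq's promoter window of Fkbp5 holds 1 E-box, CACGTG, the site that BMAL1 and its partner CLOCK are known to bind. The stretch around it is shown because the study turns on BMAL1 and Fkbp5 had a rhythm in BRE, where K14Cre is absent. It is chr17:28486270-28486369 on the minus strand of RefSeq's GRCm38.p6, with the E-box in capitals.
Fkbp5: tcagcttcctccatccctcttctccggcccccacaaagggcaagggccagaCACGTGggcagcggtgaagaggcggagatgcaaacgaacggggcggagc
The E-box starts at position -169 from the transcript start. Of 32851 mouse promoter windows that run from 250 bases before to 50 after a start, 7.15% hold CACGTG, which reads the same on both strands. The window holds no TGTTCT, the hexamer of the receptor's binding site, on either strand, which says only that these letters are not in this window.

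Tsc22d3 (ENSMUSG00000031431, chromosome X, 140539528 to 140600659, minus strand) encodes GILZ, a leucine zipper protein that carries part of the anti-inflammatory action of glucocorticoids. At ZT12 the RERE mice had 99.9, 64.0, 58.4 and 42.8 RPKM, the EpiRE mice 19, 14.6, 33.9 and 64.4 RPKM, the BRE mice 52.3, 33.9, 46.9 and 75.0 RPKM and the WT mice 75.2, 89.6, 111 and 86.8 RPKM. The 20 mice of the other times had 10.9 to 111 RPKM in RERE (median 18.8), 13.7 to 54.5 RPKM in EpiRE (median 24.4), 12.3 to 53.9 RPKM in BRE (median 19.2) and 10.8 to 27.2 RPKM in WT (median 18.2). The ZT12 mice were clear of all others in WT, whereas 5 other mice in RERE, 17 in EpiRE and 1 in BRE were above the lowest ZT12 mouse. The ZT12 mean was 4.90 times the mean of the other times in WT, against ratios of 2.24 in RERE, 1.3 in EpiRE and 2.40 in BRE. Between-time differences made up 94.6% of the log2 variance of Tsc22d3 in WT, with 56.0% in RERE, 36.8% in EpiRE and 59.6% for BRE.

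The harmonic of Tsc22d3 was 1.71 ± 0.45 log2 in RERE with a peak at ZT12.5 (limma adjusted p = 0.0305) and 1.82 ± 0.38 log2 in WT with a peak at ZT12.4 (adjusted p = 0.00319). It missed the threshold in EpiRE (0.59 ± 0.35 log2, adjusted p = 0.535) and in BRE (1.08 ± 0.34 log2, adjusted p = 0.0694). A factor of 6 times, which does not need a sine shape, gave Tsc22d3 an adjusted p of 0.0477 in RERE, 0.305 in EpiRE, 0.029 in BRE and 1.45e-08 in WT. The RERE call of Tsc22d3 was lost without any of 5 mice, with adjusted p = 0.0509 and 0.0659 without mouse 2 or mouse 4 of ZT0 and 0.0714, 0.0591 and 0.0523 without mouse 1, 2 or 3 of ZT12. Without all mice numbered 1, 2 or 4 it was 0.187, 0.107 and 0.125. The time courses of EpiRE against WT differed by the time factor (limma adjusted p = 0.00443) but not by the harmonic, whose size differed by -1.23 ± 0.52 log2 (adjusted p = 0.243).

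Zbtb16 (ENSMUSG00000066687, chromosome 9, 48654297 to 48836222, minus strand) encodes PLZF, a zinc finger repressor that is among the most steeply glucocorticoid-induced genes in human cells. At ZT12 it had 98.9, 33.2, 86.0 and 37.8 RPKM in RERE, 15.2, 17.9, 19.1 and 98.8 RPKM in EpiRE, 31.4, 39.7, 57.3 and 32.9 RPKM in BRE, and 83.7, 52.3, 77.3 and 66.5 RPKM in WT. At the other times it ran from 13.0 to 104 RPKM in RERE (median 18.8), 14.4 to 62.3 RPKM in EpiRE (median 23.8), 14.0 to 82.6 RPKM in BRE (median 18.6) and 10.1 to 29.0 RPKM in WT (median 16.7). As with Fkbp5 and Tsc22d3, only WT showed ZT12 mice clear of the rest, and the fourth EpiRE mouse of ZT12 stood far above its 3 companions.

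The Zbtb16 harmonic was 1.67 ± 0.49 log2 in RERE (peak ZT12.0, limma adjusted p = 0.0524), 0.52 ± 0.42 log2 in EpiRE (adjusted p = 0.715), 1.15 ± 0.33 log2 in BRE (peak ZT14.7, adjusted p = 0.0459) and 1.78 ± 0.36 log2 in WT (peak ZT10.4, adjusted p = 0.00228). Rhythms of BRE and WT differed for Zbtb16 (adjusted p = 0.0367), with a size difference of -0.63 ± 0.49 log2 and the BRE peak later in the fit. By the time factor the same comparison had adjusted p = 0.019. The BRE rhythm of Zbtb16 was close to the threshold and lost its call without any of 18 of the 24 libraries (adjusted p up to 0.0941, without the second mouse of ZT16) and by the time factor (adjusted p = 0.11). These 18 were all mice of ZT0, ZT4 and ZT12, all but the third of ZT8, the second of ZT16 and the first and second of ZT20. The RERE rhythm of Zbtb16, just outside the threshold, had adjusted p = 0.00984 without mouse 3 of ZT20, which was high, and was also called without the third mouse of ZT8 (0.0417) or mouse 2, 3 or 4 of ZT16 (0.0312, 0.0459 and 0.0378). The difference of BRE against WT had adjusted p = 0.0664 with no filter on low genes, 0.0714 with the spread of all 96 libraries and 0.0745 to 0.195 when all mice of 1 replicate number were left out.

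Klf9 (ENSMUSG00000033863, chromosome 19, 23141226 to 23168134, plus strand) encodes a Krüppel-like repressor that slows the growth of human keratinocytes and is known as a target of both the receptor and the clock. Its ZT12 values were 104, 73.7, 53.3 and 63.5 RPKM in RERE, 41.7, 30.2, 64.2 and 62.6 RPKM in EpiRE, 74.6, 48.6, 34.8 and 40.3 RPKM in BRE, and 117, 73.2, 109 and 70.5 RPKM in WT. The other times gave 22.8 to 79.5 RPKM in RERE (median 44.1), 29.6 to 58.6 RPKM in EpiRE (median 41.8), 15.7 to 44.3 RPKM in BRE (median 31.4) and 21.1 to 67.8 RPKM in WT (median 36.1). Means of WT climbed through the light phase, with values of 33.0 RPKM at ZT0, 45.3 at ZT4, 58.5 at ZT8 and 92.4 at ZT12, and stood at 29.0 at ZT16.

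The Klf9 harmonic was 1.06 ± 0.26 log2 in RERE (peak ZT12.0, limma adjusted p = 0.0181), 0.47 ± 0.17 log2 in EpiRE (peak ZT14.8, adjusted p = 0.235), 0.65 ± 0.24 log2 in BRE (peak ZT15.6, adjusted p = 0.134) and 1.35 ± 0.29 log2 in WT (peak ZT9.57, adjusted p = 0.00432). Klf9 is the member whose rhythm differed from WT in both singly reconstituted genotypes. EpiRE against WT gave -0.89 ± 0.35 log2 (adjusted p = 0.0281, and 0.0237 by the time factor), and BRE against WT gave -0.70 ± 0.39 log2 (adjusted p = 0.0133, and 0.0247 by the time factor). The fitted peaks of EpiRE and BRE were also later than that of WT, and the harmonic p-values do not separate size from peak time. Both comparisons use the same WT mice. RERE against WT gave -0.29 ± 0.39 log2 (adjusted p = 0.533), so a difference was not detected there. The rhythm of Klf9 in WT had adjusted p = 0.0625 without all mice numbered 2, and that in RERE was called without any single library but had adjusted p = 0.062 by the time factor and 0.184 and 0.0768 without all mice numbered 2 or 4. Leaving out all mice of 1 replicate number gave Klf9 adjusted p-values of 0.011 to 0.321 in EpiRE against WT and 0.0295 to 0.141 in BRE against WT.

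Sgk1 (ENSMUSG00000019970, chromosome 10, 21882184 to 21999903, plus strand) encodes a serum and glucocorticoid regulated kinase that acts on ion channels and transporters. RefSeq lists 6 transcript starts for it, and the receptor's site is written most clearly before 1 of them. The site is the palindrome of AGAACA, any 3 bases and TGTTCT. The 100 bases shown are chr10:21993640-21993739 on the plus strand of GRCm38.p6, with each TGTTCT, on either strand, in capitals.
Sgk1: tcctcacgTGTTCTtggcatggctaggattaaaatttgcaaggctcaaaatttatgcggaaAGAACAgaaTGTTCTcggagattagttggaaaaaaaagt
The palindrome starts at position -189 from that start with no letter off, which holds for 3 of the 32851 mouse windows. With up to 2 letters off, 1.84% of windows hold such a pair, and 19% hold at least 1 TGTTCT on either strand. A second Sgk1 window holds a pair of that looser kind at position -183, and the first TGTTCT of the printed stretch overlaps a CACGTG at position -246. No such pair was in the windows of Fkbp5, Tsc22d3, Klf9, Mt1, Mt2 or Hsd11b1, and 7 of the 9 genes had a listed window.

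The ZT12 mean of Sgk1 was 1.70 times the mean of the other times in WT, with ratios of 1.32 in RERE, 1.34 in EpiRE and 1.24 in BRE. At ZT12 it had 44.3, 25.2, 23.2 and 28.5 RPKM in RERE, 23.7, 31.7, 34.7 and 36.1 RPKM in EpiRE, 20.6, 24.7, 17.5 and 36.8 RPKM in BRE, and 40.7, 29.4, 50.3 and 47.8 RPKM in WT. The other times overlapped in each genotype, with 12.9 to 42.7 RPKM in RERE, 14.6 to 32.9 RPKM in EpiRE, 13.0 to 30.9 RPKM in BRE and 16 to 37.7 RPKM in WT. Its harmonic was 0.55 ± 0.19 log2 in RERE (limma adjusted p = 0.117), 0.23 ± 0.20 log2 in EpiRE (0.75), 0.40 ± 0.19 log2 in BRE (0.255) and 0.59 ± 0.22 log2 in WT (0.102). In WT the time factor gave Sgk1 an adjusted p of 0.0233, and the harmonic had 0.0223 without the first mouse of ZT8.

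Mt1 (ENSMUSG00000031765, chromosome 8, 94179082 to 94180327, plus strand) and Mt2 (ENSMUSG00000031762, chromosome 8, 94172664 to 94173568, plus strand) are neighbours that encode metallothioneins, small proteins that bind zinc and are induced by metals and by glucocorticoids. Their upstream 200 bases are shown because the genes moved together across mice. They are chr8:94178889-94179088 for Mt1 and chr8:94172418-94172617 for Mt2, both on the plus strand of RefSeq's GRCm38.p6. Capitals mark the core of the metal response element, TGCNCNC, on either strand.
Mt1: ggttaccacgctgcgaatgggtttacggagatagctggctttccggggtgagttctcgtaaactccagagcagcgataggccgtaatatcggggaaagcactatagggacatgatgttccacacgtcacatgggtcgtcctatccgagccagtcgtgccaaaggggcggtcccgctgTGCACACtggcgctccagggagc
Mt2: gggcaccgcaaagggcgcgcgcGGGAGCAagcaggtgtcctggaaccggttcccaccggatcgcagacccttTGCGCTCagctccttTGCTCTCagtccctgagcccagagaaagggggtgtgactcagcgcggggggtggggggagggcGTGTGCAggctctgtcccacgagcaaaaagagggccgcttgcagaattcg
The stretch of Mt2 holds 4 such cores and that of Mt1 holds 1. Over whole windows, which reach 50 bases past the start, Mt2 had 6 and Mt1 had 3. Of all mouse windows 51.0% have at least 1, 7.1% at least 3 and 2.3% at least 4. The cores of Mt1 began at positions -23, 3 and 21 from the listed start. Cores outside the windows were not counted, so these counts do not compare the whole promoters of the 2 genes. Neither window holds TGTTCT or CACGTG.

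The 2 genes were the most abundant of the 9 per transcript length. Mt1 averaged 239 ± 72.1 RPKM in RERE, 199 ± 65.7 RPKM in EpiRE, 192 ± 56.1 RPKM in BRE and 252 ± 97.5 RPKM in WT (SD, n = 24 each), and Mt2 709 ± 201, 593 ± 189, 617 ± 165 and 748 ± 262 RPKM in the same order of genotypes. At ZT12 Mt1 had 408, 299, 258 and 300 RPKM in RERE, 163, 134, 344 and 239 RPKM in EpiRE, 359, 204, 237 and 309 RPKM in BRE, and 468, 397, 521 and 294 RPKM in WT. The other times overlapped with 137 to 353 RPKM in RERE, 116 to 338 RPKM in EpiRE, 123 to 262 RPKM in BRE and 133 to 325 RPKM in WT, though in WT only 2 of 20 mice passed the lowest ZT12 mouse. At ZT12 Mt2 averaged 882 ± 226 RPKM in RERE, 671 ± 250 RPKM in EpiRE, 833 ± 230 RPKM in BRE and 1129 ± 234 RPKM in WT (SD, n = 4 each).

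The harmonic of Mt1 was 0.53 ± 0.23 log2 in RERE (limma adjusted p = 0.223), 0.22 ± 0.25 log2 in EpiRE (0.861), 0.39 ± 0.20 log2 in BRE (0.335) and 0.73 ± 0.25 log2 in WT (0.0764). The time factor called Mt1 in BRE (adjusted p = 0.0486) and in WT (adjusted p = 0.0181) but not in RERE (0.212) or EpiRE (0.872). The WT harmonic of Mt1 had adjusted p = 0.0483 without the first mouse of ZT4 and 0.0467 without the third mouse of ZT16. Rhythm differences of Sgk1, Mt1 and Mt2 from WT passed the threshold in none of the 3 genotypes, and the closest was Sgk1 in BRE against WT (-0.19 ± 0.29 log2, adjusted p = 0.163). Mt2 was not called by either fit in any genotype, and its smallest adjusted p was 0.084, by the time factor in WT.

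**Figure D2:**
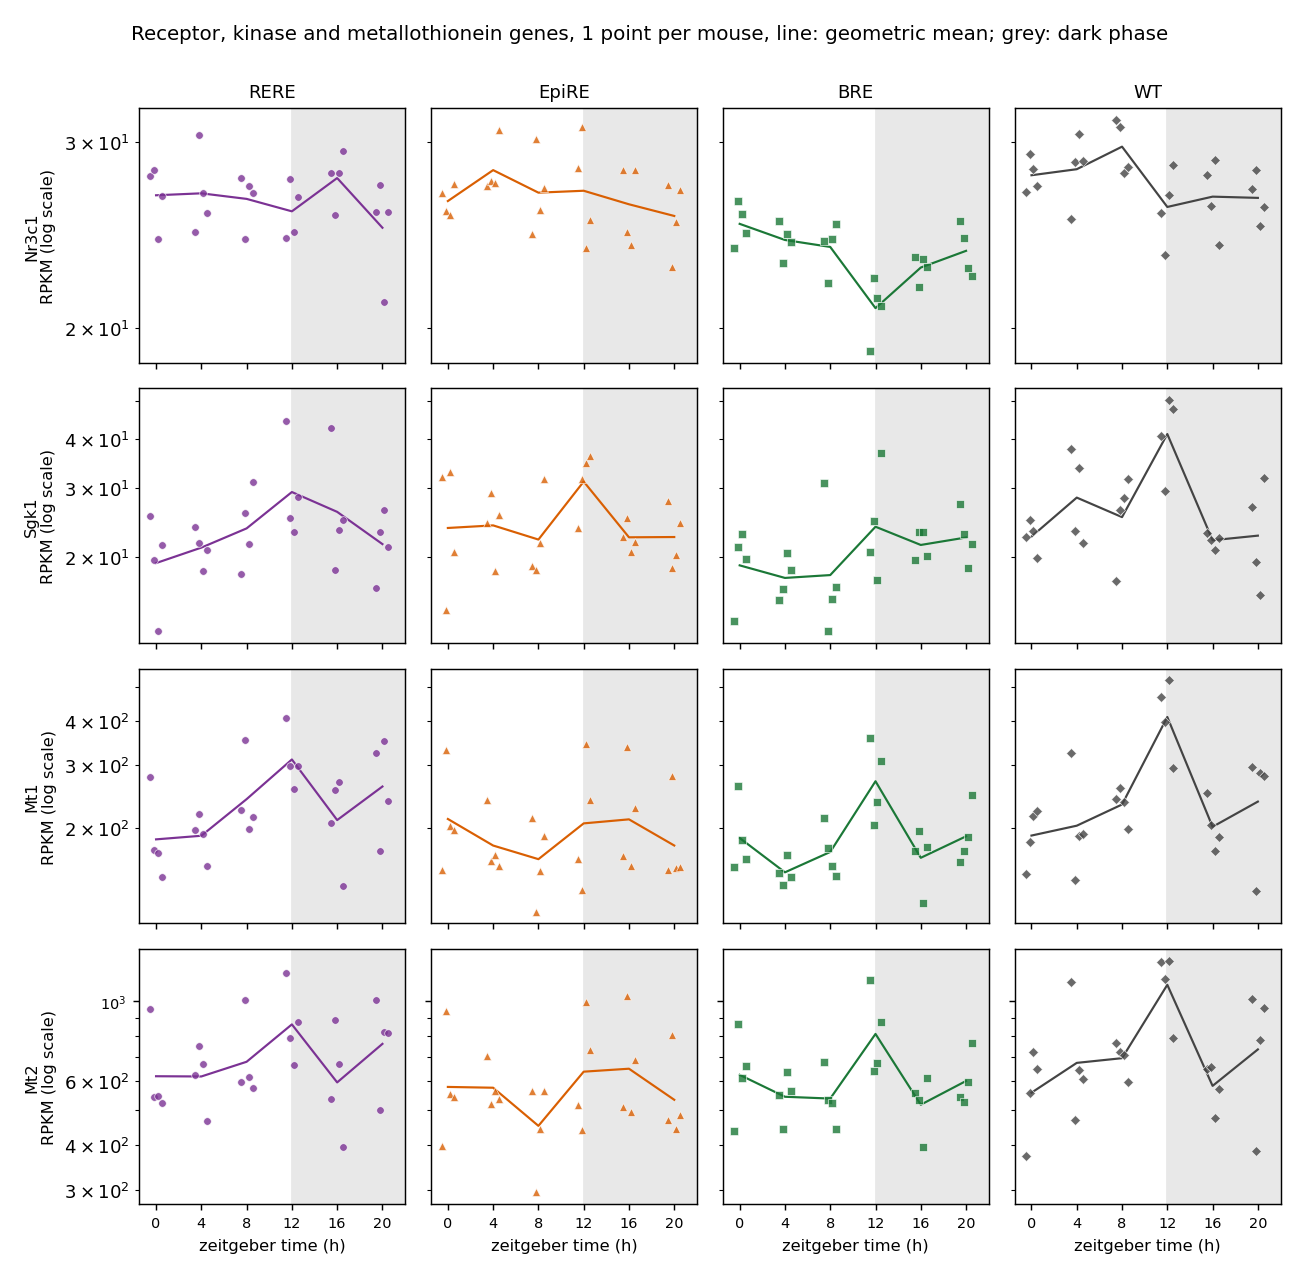
Level in RPKM (log axis) of Nr3c1, Sgk1, Mt1 and Mt2 against zeitgeber time in hours, with 1 point per mouse, the geometric mean as a line and the dark phase in grey. Nr3c1 stays between 19 and 31.5 RPKM throughout and is lowest in BRE at ZT12, while the ZT12 means of Mt1 and Mt2 in WT are 420 and 1129 RPKM.

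Counted over the list, the harmonic called 3 of the 8 tested members in RERE (Fkbp5, Tsc22d3 and Klf9), where 16.4% of all tested genes were called, and 0 of 8 in EpiRE, where 2.87% were. It called 3 in BRE (Fkbp5, Zbtb16 and Nr3c1), where 17.1% of genes were called, and 4 in WT (Fkbp5, Tsc22d3, Zbtb16 and Klf9), where 34.4% were. In EpiRE limma gave 1 member an unadjusted p below 0.05, Klf9, and the time factor called 0. All background shares here are at adjusted p, so they do not apply to a count at an unadjusted p. By the time factor 3 members were called in RERE (Fkbp5, Tsc22d3 and Zbtb16, background 10.8%), none in EpiRE (background 2.13%), 4 in BRE (Fkbp5, Tsc22d3, Nr3c1 and Mt1, background 13.4%) and 6 in WT (all tested but Nr3c1 and Mt2, background 35.1%). The median peak-to-trough difference of the 8 members was 0.81 log2 in RERE, 0.36 in EpiRE, 0.53 in BRE and 1.04 in WT, beside medians over all tested genes of 0.18, 0.15, 0.20 and 0.23 in the same order. For the harmonic, each count was within 2 genes of what the background share of 8 would give, and for the time factor the counts in RERE, BRE and WT were further above it. In the authors' deposited table of JTK_CYCLE results, q was below 0.05 for Fkbp5 in RERE, for Fkbp5 and Nr3c1 (0.0184) in BRE and for Fkbp5, Tsc22d3 (0.0108) and Zbtb16 (0.0248) in WT. That table gives a q of 0.127 for Tsc22d3 and 0.061 for Klf9 in RERE, 0.17 for Zbtb16 in BRE and 0.0526 for Klf9 in WT, all of which the harmonic called.

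**Figure D3:**
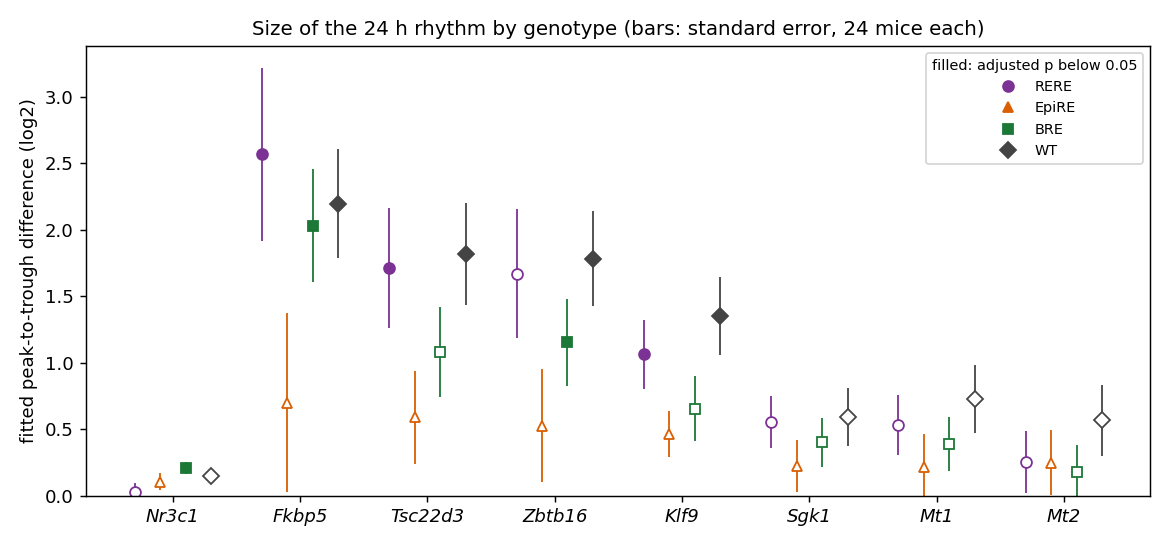
Fitted peak-to-trough difference of the 24 h harmonic (log2) for the 8 tested genes in RERE, EpiRE, BRE and WT, with bars for the standard error (24 mice each) and filled symbols for an adjusted p below 0.05. Fkbp5 is filled in RERE, BRE and WT at 2.57, 2.03 and 2.2 log2, and no symbol of EpiRE is filled.

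Rhythm differences between genotypes called few members. Against WT there were 0 of 8 in RERE (background 0.453% of tested genes), 1 in EpiRE (Klf9, background 8.51%) and 2 in BRE (Klf9 and Zbtb16, background 20.2%). The limma time factor called 2 in EpiRE against WT (Klf9 and Tsc22d3, background 5.18%) and 2 in BRE against WT (Klf9 and Zbtb16, background 13.0%). Of the comparisons among the reconstituted genotypes, EpiRE against RERE called 0 (background 4.04%), BRE against RERE 0 (background 4.79%) and BRE against EpiRE 0 (background 13.9%). In these last 3, limma gave an unadjusted p below 0.05 to 1, 1 and 2 members, in that order, and 0 had one in RERE against WT. The backgrounds above are at adjusted p, and the share of all genes at an unadjusted p is not given, so these counts have no background. The time factor called 0 in all 4 comparisons. The median size difference over the members was -0.12 log2 in RERE against WT, -0.70 in EpiRE against WT and -0.36 in BRE against WT, beside medians over all genes of -0.05, -0.08 and -0.03. All comparisons with WT share the same 24 WT mice.

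Between mice of the same genotype and time, several members rose and fell together. After the mean of each genotype and time was removed, the log2 residuals of Fkbp5 and Zbtb16 had Pearson r = 0.78 over the 96 mice (permutation p = 1e-05, the smallest that 100000 resamples can give, adjusted p = 7.2e-05 over 36 pairs) and Spearman rho = 0.64. Those of Fkbp5 and Tsc22d3 had r = 0.70 (permutation p = 5e-05, adjusted 0.00026, rho = 0.50), and those of Tsc22d3 and Zbtb16 r = 0.72 (permutation p = 2e-05, adjusted 0.00012, rho = 0.55). Without the 2 mice farthest from the median of the first gene, r was 0.72, 0.64 and 0.66 for the 3 pairs.

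Mt1 and Mt2 had the tightest relation, with r = 0.95 (permutation p = 1e-05, rho = 0.94), and Klf9 went with Mt2 at r = 0.76 and with Mt1 at r = 0.70 (permutation p = 1e-05 each, rho = 0.74 and 0.69). Nr3c1 ran the other way, with r = -0.47 to Mt1 (permutation p = 0.00011, adjusted 0.00049, rho = -0.43), r = -0.44 to Tsc22d3 (permutation p = 0.00033, adjusted 0.0012, rho = -0.38) and r = -0.33 to Fkbp5 (permutation p = 0.0081, adjusted 0.018, rho = -0.26). Without the 2 mice farthest in 1 gene of each pair, these relations had r of 0.94, 0.75, 0.69, -0.42, -0.38 and -0.32 in the order given. Without all mice numbered 1 or 2, Nr3c1 and Fkbp5 had adjusted p = 0.107 or 0.145, and without those numbered 2, Nr3c1 and Mt1 had 0.0911.

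In all, 22 of the 36 pairs passed at an adjusted p below 0.05, 16 of them positive and 6 negative, and 1 of the 22 was with Hsd11b1. All 6 negative pairs were with Nr3c1. After median-of-ratios rescaling 21 pairs passed. Permutation adjusted p was then 0.499 for Klf9 and Nr3c1 (r = -0.09), 0.053 for Nr3c1 and Mt2, and 0.0375 for Fkbp5 and Mt1, which came in. Without all mice numbered 2, Nr3c1 with Tsc22d3 was the only negative pair to keep its call. The weakest of the 22 had an absolute r of 0.26, which 26.0% of all pairs of the 11899 tested genes that varied between mice also reached. An r of that size is thus common in these libraries, and those pairs were not tested. The absolute r of Fkbp5 and Zbtb16 was reached by 0.0715% of those pairs, that of Fkbp5 and Tsc22d3 by 0.24%, that of Klf9 and Mt2 by 0.0938% and that of Mt1 and Mt2 by 0.00138%. That of Nr3c1 and Fkbp5 was reached by 15.1%. The median absolute r was 0.335 over the 28 pairs of the 8 tested members and 0.154 over all pairs.

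The relation of Fkbp5 to Zbtb16 was seen in each of the 3 reconstituted genotypes and not in WT. Within genotypes (24 mice each) r was 0.89 in RERE, 0.84 in EpiRE, 0.87 in BRE and -0.12 in WT, and without the 2 mice farthest in Fkbp5 it was 0.81, 0.63, 0.76 and 0.15. For Fkbp5 and Tsc22d3 it was 0.79 in RERE, 0.69 in EpiRE, 0.78 in BRE and 0.20 in WT, and 0.57, 0.35, 0.53 and 0.21 without those mice. The difference of r between genotypes was not tested, and Fkbp5 residuals were less spread in WT. Nr3c1 and Tsc22d3 had r of -0.47 in RERE, -0.58 in EpiRE, -0.31 in BRE and -0.33 in WT.

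**Figure D4:**
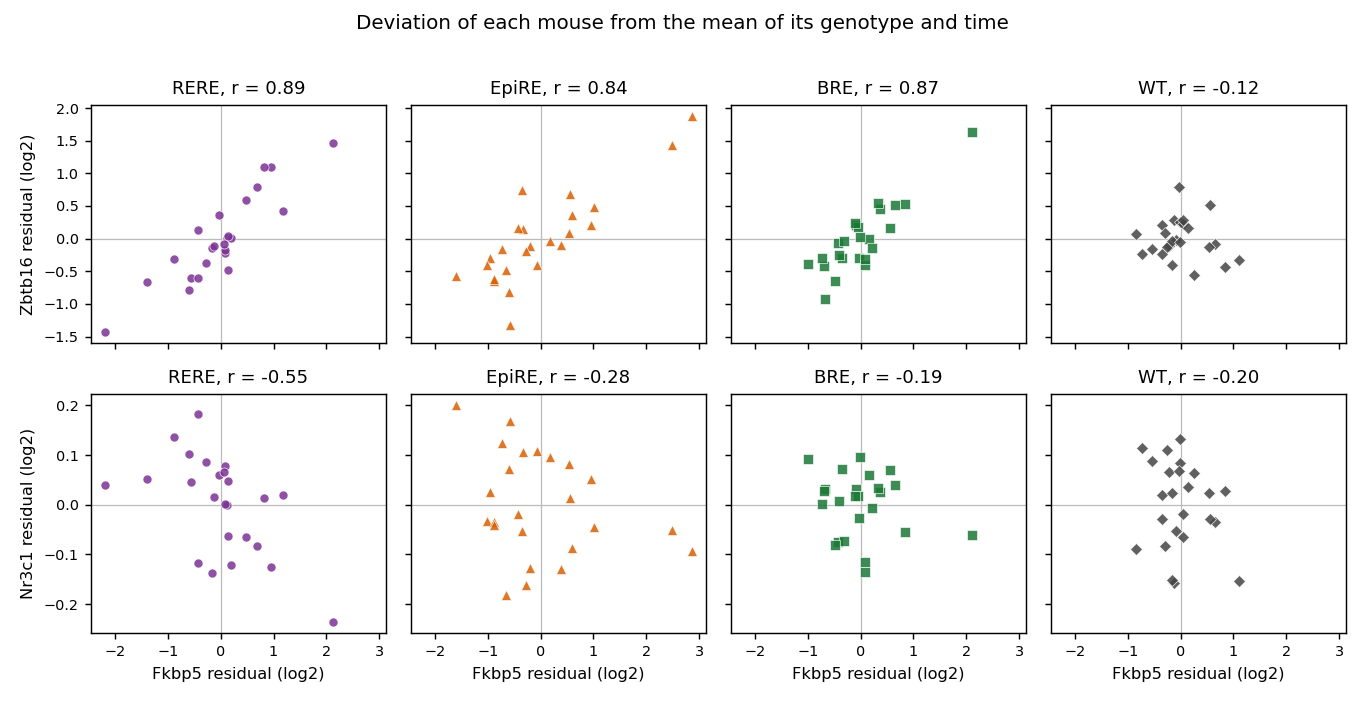
Deviation of each mouse from the mean of its genotype and time (log2), with Fkbp5 on the horizontal axis and Zbtb16 (top) or Nr3c1 (bottom) on the vertical axis, 24 mice per panel. Zbtb16 follows Fkbp5 with r of 0.89, 0.84 and 0.87 in RERE, EpiRE and BRE and -0.12 in WT, and for Nr3c1 r is -0.55, -0.28 and -0.19 in RERE, EpiRE and BRE and -0.20 in WT.

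Some of the mice that were high in Fkbp5 away from ZT12 were also high in Tsc22d3 and Zbtb16, and others were not. The third RERE mouse of ZT20, with 42.8 RPKM of Fkbp5, had 111 RPKM of Tsc22d3 and 86.6 of Zbtb16, and its 21.1 RPKM of Nr3c1 was the lowest of its genotype. The first EpiRE mouse of ZT4 had 30.3 RPKM of Fkbp5, 34.9 of Tsc22d3 and 62.3 of Zbtb16, and the second BRE mouse of ZT16 had 24.4, 53.9 and 82.6 RPKM of the 3 genes. The fourth EpiRE mouse of ZT12 had 48.5 RPKM of Fkbp5, 64.4 of Tsc22d3 and 98.8 of Zbtb16, next to companions at 2.18 to 4.41 RPKM of Fkbp5. The third and the fourth EpiRE mouse of ZT0, with 19.5 and 18.7 RPKM of Fkbp5, had 20.9 and 23.4 RPKM of Tsc22d3, below their companions. The fourth WT mouse of ZT16, with 16.6 RPKM of Fkbp5, had 11.4 RPKM of Zbtb16, the lowest at that time.

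The Fkbp5 residual was set against 7 other measures of the same libraries. Pearson r over the 96 mice was 0.08 with the summed T cell markers, 0.15 with Langerhans cell, 0.05 with fibroblast, 0.23 with blood and -0.04 with keratinocyte markers, 0.08 with 10 immediate early and heat shock genes and 0.11 with estimated depth. Spearman rho lay between 0.01 and 0.22, and all 7 permutation p-values were at least 0.54 after adjustment for r and at least 0.33 for rho. Without the 2 farthest mice r lay between 0.03 and 0.27. Within WT, r with Fkbp5 was higher for blood (0.68), keratinocyte (0.57), T cell (0.48) and Langerhans cell (0.44) markers, and within RERE it was 0.56 for Langerhans cell markers (24 mice each, not tested within genotypes). At ZT12 T cell markers were low in RERE, with 21.6 to 39.4 RPKM summed, against 33.2 to 74.8 RPKM at other times. In WT they had 29.3 to 52.4 RPKM at ZT12, against 34.5 to 81.3 RPKM, and their lowest mean was at ZT8 (36.6 RPKM). The harmonic called 1 of these 5 markers, Thy1, in RERE and in WT (background 16.4% and 34.4%). The keratinocyte and blood sums of WT had their lowest means at ZT12, with 15867 and 13.5 RPKM. Whether cells of these types take part in the ZT12 values of the members was not tested.

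By likeness of the 24 means of genotype and time, each genotype centred on its own mean, Fkbp5 was closest to Ifngr1, a chain of the interferon gamma receptor (Pearson r = 0.95), Zbtb16 (0.94) and Glul, the gene of glutamine synthetase (0.94). Tsc22d3 was closest to Ifngr1, Glul and Fkbp5 (0.92 each), and Zbtb16 was closest to Slc43a1, an amino acid transporter gene (0.95), Fkbp5 and Mknk2 (0.93). Klf9 stood with Per1, a clock gene that the receptor also induces (0.94), Ets2 (0.93) and Frat2 (0.92). Sgk1 was closest to Irs2 (0.90) and Maff (0.89), Mt1 to Mt2 (0.95), Tsc22d3 (0.92) and Rasd1 (0.90), and Mt2 to Mt1, Nfkbia (0.85) and Tob1 (0.85). Nr3c1 had weaker neighbours in Limd1 (0.76), Ephb3 (0.75) and Camta1 (0.73). The means share libraries and depth, and these values are descriptions.

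A wider list of 25 further genes that glucocorticoids are known to induce held 22 tested genes. The harmonic called 3 in RERE (Ddit4, Glul and Per1), 0 in EpiRE, 2 in BRE (Cebpd and Glul) and 5 in WT (Glul, Per1, Nfkbia, Txnip and Map3k6), and the time factor called 4, 0, 3 and 10. Of all tested genes the harmonic called 16.4%, 2.87%, 17.1% and 34.4% in the same order, and the time factor 10.8%, 2.13%, 13.4% and 35.1%. In EpiRE limma gave 6 of the 22 an unadjusted p below 0.05. The shares of all tested genes in this paragraph are at adjusted p and are no background for unadjusted counts. Glul, which fixes ammonia into glutamine, changed by 1.87 ± 0.32 log2 in RERE with a peak at ZT12.4 (limma adjusted p = 0.00123), 0.77 ± 0.26 log2 in EpiRE (0.172), 1.41 ± 0.20 log2 in BRE with a peak at ZT14.1 (0.000828) and 1.81 ± 0.24 log2 in WT with a peak at ZT11.2 (3.93e-05). Per1 had 1.78 ± 0.38 log2 in RERE (0.00734), 0.86 ± 0.30 log2 in EpiRE (0.195), 0.80 ± 0.36 log2 in BRE (0.247) and 1.61 ± 0.38 log2 in WT (0.00806). Against WT, the harmonic called 0 of the 22 in EpiRE (5 at an unadjusted limma p below 0.05, and Glul, Per1 and Txnip by the time factor) and 2 in BRE (Cdkn1a and Glul). Of all tested genes it called 8.51% in EpiRE and 20.2% in BRE against WT, and the time factor called 5.18% in EpiRE. The median over the 22 genes was 0.56 log2 in RERE, 0.34 in EpiRE, 0.34 in BRE and 0.50 in WT. Over all tested genes the medians were 0.18, 0.15, 0.20 and 0.23 log2 in the same order.

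Among 13 genes of receptor chaperones and cofactors, all tested, 5 were called in RERE (Hsp90aa1, Hspa8, Ncoa3, Ppid and Stip1), 0 in EpiRE, where 3 had an unadjusted p below 0.05 in limma and the time factor called 0, 5 in BRE (Hsp90aa1, Hsp90ab1, Hspa8, Ncoa3 and Ncor1) and 7 in WT (Fkbp4, Hsp90ab1, Hspa8, Ncoa2, Ppid, Ptges3 and Stip1). By the time factor these counts were 1 in RERE (Ppid), 6 in BRE and 6 in WT. For this list and those below, the harmonic called 16.4% of all tested genes in RERE, 2.87% in EpiRE, 17.1% in BRE and 34.4% in WT. The time factor called 10.8%, 2.13%, 13.4% and 35.1% in the same order. Both sets of shares are at adjusted p and are no background for unadjusted counts. Fkbp4, the co-chaperone that favours receptor transport to the nucleus, peaked at ZT19.4 in WT with 0.68 ± 0.10 log2 (limma adjusted p = 7.83e-05), and its rhythm differed in EpiRE and in BRE against WT. Of 5 tested genes of the zinc and metal response other than Mt1 and Mt2, the zinc importer gene Slc39a10 was called in RERE (0.43 ± 0.12 log2, adjusted p = 0.0376) and in WT (0.72 ± 0.11 log2, adjusted p = 0.000218). Of 8 core clock genes the harmonic called 8 in RERE, 4 in EpiRE (Arntl, Dbp, Per2 and Tef), 2 in BRE (Arntl and Npas2) and 8 in WT, and the time factor called 8, 0, 1 (Npas2) and 8. Of the 10 immediate early and heat shock genes, which mark stress and handling, it called 1 in RERE (Fosb), 0 in EpiRE (0 also at an unadjusted p below 0.05, and Ier3 by the time factor), 2 in BRE (Hspa1a and Hspa1b) and 0 in WT (0 at an unadjusted p below 0.05 and 0 by the time factor). In BRE the median size was 0.15 log2 over the clock list and 0.53 log2 over the 8 tested members. Fkbp5 was the largest of those members, with 2.03 ± 0.43 log2.

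Mean levels over the day are set side by side, since each genotype's table was normalized apart and they were not tested. Fkbp5 averaged 12.4 RPKM in RERE, 10.3 in EpiRE, 5.26 in BRE and 11.3 in WT, with the BRE value the lowest. Klf9 averaged 52.0 RPKM in RERE, 42.2 in EpiRE, 33.8 in BRE and 49.0 in WT. Tsc22d3 averaged 35.7, 26.6, 26.8 and 30.5 RPKM and Zbtb16 35.9, 30.3, 26.4 and 26.4 RPKM in the same order. Sgk1 averaged 24.1 RPKM in RERE, 24.8 in EpiRE, 20.9 in BRE and 27.6 in WT. The SD of Fkbp5 over the 24 mice was 13.2 RPKM in RERE, 10.7 in EpiRE, 5.16 in BRE and 10.3 in WT, and that of Klf9 was 20.3, 10.2, 12.0 and 25.7 RPKM in the same order.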

How the data were processed

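Epidermal RNA of 96 mice was sequenced, 1 library a mouse. Per the submitters' processing notes, reads were handled with Trimmomatic 0.36, HISAT2 2.2.1, SAMtools 1.3.1, featureCounts 1.6.0 and edgeR on mm10. The deposited tables, 1 for each genotype, hold values on a log2 scale that the authors made without a stated unit. From the values they were taken as log2 RPKM with a prior of about 2 reads, since low values step by whole reads, and levels here are 2 to the power of those values. The deposited rhythm tables give q-values that the authors computed with JTK_CYCLE and BIOCYCLE, which are cited only where named. A second deposited copy of the 96 sample columns was not used.

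Testing was restricted to the 12144 genes whose mean reached 1 RPKM, with 10240 below. In R 4.3.3, limma 3.58.1 fitted a 24 h harmonic within each genotype and its difference between 2 genotypes with a free mean for each (F tests with 2 degrees of freedom, trended variance). Benjamini-Hochberg adjustment ran over all tested genes and the threshold was 0.05. Time as a factor with 6 levels was the main alternative. Others were median-of-ratios rescaling, no filter, a robust prior, the spread of all 96 libraries, a pseudocount of 1 RPKM, a replicate block and leaving out each library or replicate number. Correlations between mice used Python 3.11.15 with scipy 1.17.1 and 100000 resamples within genotype and time. The relations of Fkbp5 to marker sums, the correlations within genotypes without 2 mice and the share of all gene pairs with as large an r were chosen after seeing the data. The fits were tested on simulated data.

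All 9 genes could be named in any comparison, by their symbol. Of other lists, genes that passed a test are named, or up to 4 a list, and for likeness the 3 genes with the highest correlation, of which 1 is not reported here. The genes and lists were chosen with earlier results of these data known. Replicate numbers were not treated as pairs in the main fits. Residuals of same-numbered mice had a median correlation of 0.0012 over 1104 pairs, with a range of -0.50 to 0.62. These pairs lie within and between genotypes, so the median cannot exclude a batch that same-numbered mice of some groups shared. P-values measure the spread between mice. Estimated depth was 11.6 to 33.3 M reads a library. Positions are from GENCODE M21 (mm10), and promoter sequences, listed for 7 of the 9 genes, from RefSeq GRCm38.p6.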

Additional observations from a re-analysis of the deposited data

Results flagged for a closer look

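Each group of 4 mice of 1 genotype and time was checked, for each of the 9 genes, for a mouse far from the other 3 (Dixon's test on log2 values at its 95% critical value). It picked out 16 of 216 groups, 15 with a high and 1 with a low mouse, where chance gives about 1 in 20. For Fkbp5 these were the first EpiRE mouse of ZT4 with 30.3 RPKM (others 2.96 to 3.29), the second BRE mouse of ZT16 with 24.4 RPKM (others 3.41 to 3.56) and the second WT mouse of ZT4 with 8.09 RPKM (others 4.69 to 5.10). The fourth EpiRE mouse of ZT12, the highest in Fkbp5 with 48.5 RPKM (others 2.18 to 4.41), did not pass on the log2 scale, where its companions were more spread. The same EpiRE and BRE mice stood apart in Tsc22d3, with 34.9 RPKM (others 13.7 to 14.4) and 53.9 RPKM (others 14.7 to 18.3). The third RERE mouse of ZT20 stood apart in Tsc22d3 with 111 RPKM (others 19.1 to 24.4) and in Zbtb16 with 86.6 RPKM (others 19.7 to 25.2).

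Zbtb16 was also far from its group in the fourth EpiRE mouse of ZT12 with 98.8 RPKM (others 15.2 to 19.1) and the first WT mouse of ZT16 with 24.7 RPKM (others 11.4 to 12.1). The first RERE mouse of ZT0 had 63.9 RPKM of Klf9 (others 22.8 to 26.6) and 949 RPKM of Mt2 (others 524 to 545). Nr3c1 was high in the fourth EpiRE mouse of ZT4, with 30.8 RPKM (others 27.3 to 27.6). The second EpiRE mouse of ZT20 had 279 RPKM of Mt1 (others 152 to 154) and 803 RPKM of Mt2 (others 443 to 485), and the second RERE mouse of ZT8 had 1009 RPKM of Mt2 (others 575 to 616). The low mouse was the second WT mouse of ZT20, with 133 RPKM of Mt1 (others 280 to 298).

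Rhythm differences from WT passed limma's interaction test, which covers size and peak time together, for Klf9 in EpiRE and in BRE and for Zbtb16 in BRE. Klf9 in EpiRE had a size difference of -0.89 ± 0.35 log2 and a peak at ZT14.8, against ZT9.57 in WT (limma adjusted p = 0.0281). Klf9 in BRE had -0.70 ± 0.39 log2 and a peak at ZT15.6 (limma adjusted p = 0.0133). Zbtb16 in BRE had -0.63 ± 0.49 log2 and a peak at ZT14.7, against ZT10.4 in WT (limma adjusted p = 0.0367).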

How the results depend on the processing

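No called value changed direction under any alternative. Of the genes called by the harmonic, RERE had 1993, against 1306 with time as a factor, EpiRE 349, against 180 with no filter, and BRE 2072, against 1350 with no filter. The difference of RERE against WT had 55, against 10 after median-of-ratios rescaling, 2 with no filter, 17 with time as a factor and 84 with the spread from all 96 libraries. EpiRE against WT had 1034, against 654 after rescaling and 629 with time as a factor. Time as a factor gave 1584 for BRE against WT (2457 by the harmonic), 276 for EpiRE against RERE (491) and 907 for BRE against EpiRE (1692). With a replicate block, EpiRE had 206 rhythmic genes and RERE against WT had 4 differences. The block moved no other count by over 1.5 times and changed no call of the 9 genes.

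Leaving out 1 library or 1 replicate number gave 1034 to 2263 genes in RERE, 6 to 550 in EpiRE, 211 to 2787 in BRE and 2065 to 4544 in WT. For differences, leaving out 1 replicate number gave 0 to 2 in RERE against WT, 145 to 1376 in EpiRE against WT, 1012 to 1873 in BRE against WT, 74 to 256 in EpiRE against RERE, 188 to 714 in BRE against RERE and 383 to 1313 in BRE against EpiRE. The count of related pairs of the 9 genes was 22, and 12 to 21 without 1 replicate number. Of single libraries, 6 moved the EpiRE count by over 1.5 times: 225 without the fourth mouse of ZT0, 190 without the first of ZT4, 227 without the first of ZT12, and 211, 550 and 214 without mouse 1, 3 or 4 of ZT16. The cause was not tested.

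For the 9 genes, the WT rhythms of Fkbp5, Tsc22d3 and Zbtb16 kept their call in every alternative. With no filter, adjusted p was 0.057 for Tsc22d3 in RERE, 0.0851 for Zbtb16 in BRE, 0.0664 for Zbtb16 in BRE against WT (0.0714 with the spread from all 96 libraries) and 0.0516 for Klf9 in EpiRE against WT. Rescaling brought in Zbtb16 in RERE (0.0417) and Tsc22d3 in BRE (0.0481). Nr3c1 in BRE had 0.11 and 0.0792 without all mice numbered 2 or 3. The prior in the deposited values compresses low levels, which limits Hsd11b1 alone.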
